A study of Mus musculus with 28 samples.

Results

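Alpk1, Tifa, Traf2, Traf6, Map3k7, Tab2 and Irf5 are genes of innate immune signalling whose levels were followed here in mouse liver. The rows with these 7 symbols were taken from both deposited count tables, out of 23393 gene symbols. Tifa, Alpk1 and Irf5 were chosen by their measured levels, which were higher in livers of Sirt6 heterozygotes than in wild type livers given vehicle, and the other 4 because they carry the signal on from Tifa. The vehicle values that chose the first 3 genes are given as a description, without a test. All 7 genes passed the filter on low counts and had reads in every library.

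Alpk1 encodes a kinase that binds ADP-heptose, a sugar of the lipopolysaccharide pathway of Gram-negative bacteria, in the cytosol. It phosphorylates the adaptor TIFA, which then assembles into oligomers and recruits the ubiquitin ligases TRAF6 and TRAF2. The ubiquitin chains they build are bound by TAB2, which brings in the kinase TAK1, the product of Map3k7, and TAK1 activates IKK with NF-kB and the JNK and p38 kinases. IRF5 is a transcription factor that acts below the MyD88-dependent Toll-like receptors, also through TRAF6, and in the liver is best known from macrophages.

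Livers came from 129svj mice 11 to 13 months old, 7 animals in each of 4 groups, with 1 RNA-seq library per animal. The groups were SIRT6 heterozygotes given WY-14643 (HZ WY), wild types given WY-14643 (WT WY), heterozygotes given vehicle (HZ vehicle) and wild types given vehicle (WT vehicle). WY-14643 is an agonist of the nuclear receptor PPARα and was given by oral gavage at 50 mg/kg in 0.5% carboxymethylcellulose (CMC). Vehicle animals received the CMC alone, and livers were collected 12 h after gavage. The sources used here do not say how the Sirt6 allele was inactivated or of which sex the animals were. Animals in the WY groups carry numbers from 2 to 25 and those in the vehicle groups from 29 to 78, so treatment and the series of animal numbers cannot be told apart.

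Libraries held 15795201 to 20020078 counts in genes. Levels are given in CPM after TMM scaling, as mean ± SD with n = 7 in each group. Sirt6 averaged 1.61 ± 0.359 CPM in HZ WY against 3.31 ± 0.685 CPM in WT WY livers (log2 fold change -1.04 ± 0.16 SE, edgeR adjusted p = 0.00721), and 1.21 ± 0.180 CPM in HZ vehicle against 2.38 ± 0.615 CPM in WT vehicle livers (-0.97 ± 0.17, adjusted p = 0.00696). The hepatocyte markers Alb, Ttr and Apoa1 together made up 37538 to 97199 CPM in the 28 libraries. On the second principal component, which held 9.77% of the variance, 5 HZ libraries lay apart from the other 23. They were those of HZ WY animals 14, 15 and 21 and HZ vehicle animals 30 and 38. Their values were 18.4 to 37.6, against -12.4 to 5.26 in the other 23. They were taken as the 5 HZ libraries farthest from the median, with the number set and WT libraries not ranked. The 4 highest deviations of Kupffer cell and macrophage markers from their group's mean were in animals 14, 30, 21 and 38 of these, so each result that rests on them is also given without the 5. In bulk tissue, fewer cells of a type and less RNA per cell cannot be told apart.

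Alpk1 and Tifa are neighbours on mouse chromosome 3 and are read in opposite directions from starts 9.278 kb apart. In GENCODE M21 (GRCm38), Alpk1 spans 127670310 to 127780527 on the minus strand and Tifa 127789805 to 127832164 on the plus strand, both protein-coding. Irf5 lies on chromosome 6 (29526625 to 29541871, plus strand). The windows from 250 bases before to 50 bases after the RefSeq starts are shown for these 3 genes, since their measured levels chose them and Alpk1 and Tifa are neighbours. They are read 5′ to 3′ on the gene's own strand from RefSeq (GRCm38.p6), and capitals mark a match to the NF-kB consensus.
Alpk1, chr3:127780478-127780777, minus strand: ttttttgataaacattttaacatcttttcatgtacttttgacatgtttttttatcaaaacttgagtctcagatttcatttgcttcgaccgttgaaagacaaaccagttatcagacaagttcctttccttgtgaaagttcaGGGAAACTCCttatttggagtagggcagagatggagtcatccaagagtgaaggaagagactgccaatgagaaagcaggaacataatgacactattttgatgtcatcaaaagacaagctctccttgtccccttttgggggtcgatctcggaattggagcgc
Tifa, first start, chr3:127789622-127789921, plus strand: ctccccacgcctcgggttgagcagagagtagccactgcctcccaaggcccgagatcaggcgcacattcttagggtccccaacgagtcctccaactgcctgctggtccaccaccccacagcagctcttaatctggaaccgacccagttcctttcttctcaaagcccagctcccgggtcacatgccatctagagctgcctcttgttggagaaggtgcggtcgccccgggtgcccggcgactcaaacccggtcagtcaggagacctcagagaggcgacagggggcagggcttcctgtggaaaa
Tifa, second start, chr3:127790407-127790706, plus strand: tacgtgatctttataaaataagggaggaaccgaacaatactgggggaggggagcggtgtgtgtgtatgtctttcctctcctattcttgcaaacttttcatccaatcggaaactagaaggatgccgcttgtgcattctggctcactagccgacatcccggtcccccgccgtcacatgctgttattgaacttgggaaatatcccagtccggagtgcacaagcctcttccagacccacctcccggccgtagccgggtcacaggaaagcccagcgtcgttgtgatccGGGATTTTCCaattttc
Irf5, chr6:29526375-29526674, plus strand: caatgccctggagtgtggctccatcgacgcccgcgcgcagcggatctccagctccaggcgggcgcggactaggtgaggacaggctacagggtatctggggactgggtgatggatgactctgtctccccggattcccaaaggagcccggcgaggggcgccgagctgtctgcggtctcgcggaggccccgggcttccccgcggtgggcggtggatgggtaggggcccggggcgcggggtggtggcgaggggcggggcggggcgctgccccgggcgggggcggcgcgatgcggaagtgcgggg
The Alpk1 window held 1 match to the NF-kB consensus, with its first base at position -110 from the start, and the window of the second Tifa start held 1 with its first base at 34. The first Tifa start and Irf5 held none. Of the other 4 genes, the Map3k7 window held 1 match, on the opposite strand, while those of Traf2, Traf6 and Tab2 held none. Of 32851 promoter windows of the same length in the table, 4.51% held such a match on either strand. The core of the interferon-stimulated response element (GAAA, any pair of bases, GAAA), an AP-1 site, TGANTCA, a nuclear receptor half-site, AGGTCA, the direct repeat of that half-site with 1 base between that PPARα binds with RXR, and the E-box CACGTG were found in no window of the 7 genes on either strand. They were in 3.44%, 7.81%, 16.3%, 0.0396% and 7.15% of all windows, in that order, and the half-site is contained in the direct repeat. A match or its lack describes the letters of these windows and no binding.

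Per kb of exon sequence, Tab2 and Map3k7 were the highest of the 7 genes and Alpk1 the lowest in each group. In WT vehicle livers Tab2 stood at 12.1 ± 1.55 and Map3k7 at 10.2 ± 1.00 CPM per kb, Traf6 at 3.25 ± 0.254, Irf5 at 3.07 ± 0.836, Tifa at 2.04 ± 0.676, Traf2 at 1.91 ± 0.207 and Alpk1 at 0.639 ± 0.0814. Traf6 and Irf5 were within each other's spread, and so were Tifa and Traf2. In HZ vehicle livers Tifa averaged 5.57 ± 4.21 and Irf5 4.82 ± 1.22 CPM per kb, both above the mean of Traf6 at 3.39 ± 0.384, with a wide spread for Tifa. Alpk1 averaged 1.49 ± 1.04 CPM per kb in HZ vehicle livers.

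Tifa, the adaptor, had the widest spread of the 7 genes per kb in HZ vehicle livers (SD 4.21 CPM per kb). Under vehicle, its lowest, median and highest HZ libraries had 6.01, 12.9 and 41.7 CPM, against 4.43, 5.68 and 9.92 CPM in WT libraries. HZ animals 30 (41.7 CPM) and 38 (31.2 CPM) were far above the rest, 4 of 7 HZ libraries exceeded every WT library, and the groups overlapped. The mean was 17.8 ± 13.5 CPM in HZ vehicle and 6.52 ± 2.16 CPM in WT vehicle livers, a log2 fold change of 1.45 ± 0.32, given as a description. It was 0.66 ± 0.20 without the 5 HZ libraries.

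The WY groups did not enter the choice of the genes and give a separate comparison of the genotypes. Tifa had 5.45, 7.46 and 9.25 CPM in the lowest, median and highest HZ WY libraries, against 3.84, 5.02 and 5.11 CPM in WT WY libraries. Every HZ WY library lay above every WT WY library, a separation that 0.452% of the 12607 genes tested showed in that direction and 0.896% in the other. Tifa averaged 7.27 ± 1.31 CPM in HZ WY and 4.75 ± 0.516 CPM in WT WY livers, a log2 fold change of 0.62 ± 0.33 that did not pass in the fit of all 28 libraries (edgeR adjusted p = 0.260). In a fit of the WY libraries alone, which does not take in the wide spread of the HZ vehicle libraries, the change was 0.62 ± 0.12 and passed (adjusted p = 0.0232). It was 0.48 ± 0.23 without the 5 HZ libraries (adjusted p = 0.311).

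Alpk1, the kinase that acts on TIFA, gave a like picture at lower levels. Under vehicle, the lowest, median and highest libraries had 4.67, 6.59 and 22.4 CPM in HZ against 3.50, 4.63 and 5.07 CPM in WT livers. Animals 38 (22.4 CPM) and 30 (18.5 CPM) were again the highest HZ libraries, and 5 of 7 HZ libraries lay above every WT library, with the lower part of the HZ group overlapping the WT group. The fold change was 1.23 ± 0.29 on the log2 scale, as a description, and 0.49 ± 0.15 without the 5 HZ libraries.

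Under WY, Alpk1 had 3.58, 4.41 and 7.90 CPM in the lowest, median and highest HZ libraries, against 1.96, 2.77 and 3.79 CPM in WT libraries. The 3 highest HZ WY libraries, at 6.43 to 7.90 CPM, were those of animals 14, 15 and 21, and 6 of 7 HZ WY libraries lay above every WT WY library. Alpk1 averaged 5.43 ± 1.82 CPM in HZ WY and 2.94 ± 0.638 CPM in WT WY livers, a log2 fold change of 0.89 ± 0.31 that did not pass (edgeR adjusted p = 0.0905). It passed with the WY libraries alone (0.89 ± 0.20, adjusted p = 0.0288) and in DESeq2 (0.87 ± 0.29, adjusted p = 0.0382), and without HZ vehicle animal 38 (adjusted p = 0.0445). The value was 0.46 ± 0.17 without the 5 HZ libraries (adjusted p = 0.193).

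**Figure D1:**
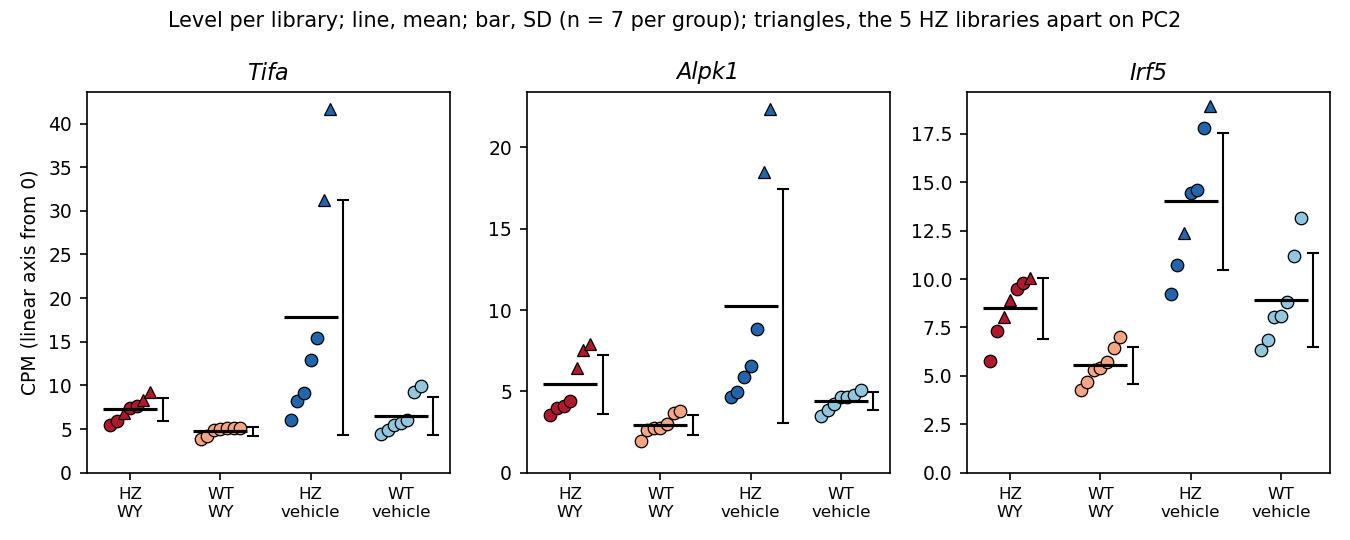
Level of Tifa, Alpk1 and Irf5 in each of 28 liver libraries in CPM on a linear axis from 0, with the mean as a line and the SD as a bar (n = 7 per group) and triangles for the 5 HZ libraries that lie apart on the second principal component. The triangles hold the 2 highest Tifa and Alpk1 values under vehicle, up to 41.7 and 22.4 CPM, whereas Irf5 has both high and middle triangles.

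Irf5, the transcription factor of the Toll-like receptor arm, had a higher mean in HZ than in WT livers under both treatments, with no animal far from its group. Under vehicle, its lowest, median and highest libraries had 9.20, 14.4 and 18.9 CPM in HZ against 6.36, 8.11 and 13.2 CPM in WT livers. The HZ libraries spread evenly over their range, 4 of 7 lay above every WT library and the groups overlapped. The log2 fold change, as a description, was 0.65 ± 0.16, and 0.58 ± 0.18 without the 5 HZ libraries. In the number series 71 to 78, Irf5 was at 6.84, 6.36 and 8.11 CPM in WT animals 74, 76 and 78. HZ animal 71 of that series had 9.20 CPM, the lowest of its group. Over the alternatives that leave out more than 1 library or change the fit, among them those for the number series, the change ran from 0.49 to 0.70.

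In the WY groups, Irf5 had 5.75, 8.94 and 10.1 CPM in the lowest, median and highest HZ libraries and 4.28, 5.42 and 6.98 CPM in WT libraries. Of the HZ WY libraries, 6 of 7 were above every WT WY library, and only animal 18, at 5.75 CPM, fell within the WT range. Irf5 averaged 8.48 ± 1.56 CPM in HZ WY and 5.55 ± 0.945 CPM in WT WY livers and was higher in HZ by 0.61 ± 0.17 on the log2 scale, which passed (edgeR adjusted p = 0.0455). The call was close to the threshold. It was lost in 15 of 28 fits that left out 1 library (adjusted p from 0.0507 to 0.0947), with no filter on low counts (adjusted p = 0.0657) and without the 5 HZ libraries (0.54 ± 0.20, adjusted p = 0.194), at changes of like size. The call held with the WY libraries alone (adjusted p = 0.0272), in DESeq2 (adjusted p = 0.0180) and in limma voom (adjusted p = 0.0273). It also held with a filter at a mean of 5 CPM (adjusted p = 0.0357), with DESeq2 size factors (adjusted p = 0.0425) and with a trend over transcript length removed (adjusted p = 0.0446). Irf5 shares 411 of its 2905 exon bases with Tnpo3 on the opposite strand, and the sources used here do not state whether the counting used strand. Tnpo3 differed between HZ and WT by -0.06 ± 0.05 under WY and by -0.02 ± 0.05 under vehicle.

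Irf5 was the 1 of 7 genes that passed in HZ against WT under WY, where 3.16% of the 12607 genes tested passed, 1.42% as higher in HZ and 1.74% as lower. Among the relay genes, Tab2 was nearest. Tab2, the ubiquitin-binding partner of TAK1, had 52.3, 59.9 and 69.9 CPM in the lowest, median and highest HZ WY libraries, against 44.5, 49.8 and 54.2 CPM in WT WY libraries. The HZ libraries lay mostly above the WT ones, 5 of 7 above every WT library, and the groups overlapped. The log2 fold change was 0.33 ± 0.096 (edgeR adjusted p = 0.0563), and it passed with the WY libraries alone (0.33 ± 0.072, adjusted p = 0.0272), in DESeq2 (adjusted p = 0.0357) and in limma voom (adjusted p = 0.0311). Without the 5 HZ libraries it was 0.36 ± 0.097 (adjusted p = 0.0797), a change no smaller than with them.

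Traf2, Traf6 and Map3k7 did not pass between genotypes under WY. Traf2, a ubiquitin ligase that oligomers of TIFA recruit, averaged 13.4 ± 1.23 CPM in HZ WY and 12.0 ± 0.892 CPM in WT WY livers (log2 fold change 0.16 ± 0.092, edgeR adjusted p = 0.302). Traf6, the ligase that also serves the Toll-like receptors, averaged 23.9 ± 1.53 CPM in HZ WY and 22.045 ± 1.07 CPM in WT WY livers (0.12 ± 0.063, adjusted p = 0.253). Map3k7, which encodes TAK1, averaged 57.2 ± 2.96 CPM in HZ WY and 59.2 ± 3.14 CPM in WT WY livers (-0.05 ± 0.056, adjusted p = 0.616). The groups of all 3 genes overlapped, and each mean difference was small beside the level.

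Under vehicle, the relay genes differed little between genotypes, given as a description. The log2 fold change was 0.11 ± 0.096 for Tab2, 0.08 ± 0.094 for Traf2, 0.06 ± 0.063 for Traf6 and -0.05 ± 0.056 for Map3k7. Single HZ animals were high for some of them, with Tab2 at 109.6 CPM in animal 30 against at most 86.6 CPM in WT, and Traf2 at 14.2 CPM in animal 38 against at most 11.1 CPM in WT. Traf6 was highest, at 32.9 CPM, in HZ animal 34, which is not among the 5. The HZ and WT vehicle groups overlapped for all 7 genes, where 0.0397% of the genes tested had every HZ library above every WT library and 0.23% every HZ library below. In that comparison 2.07% of the genes tested passed, 0.301% as higher and 1.77% as lower in HZ.

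**Figure D2:**
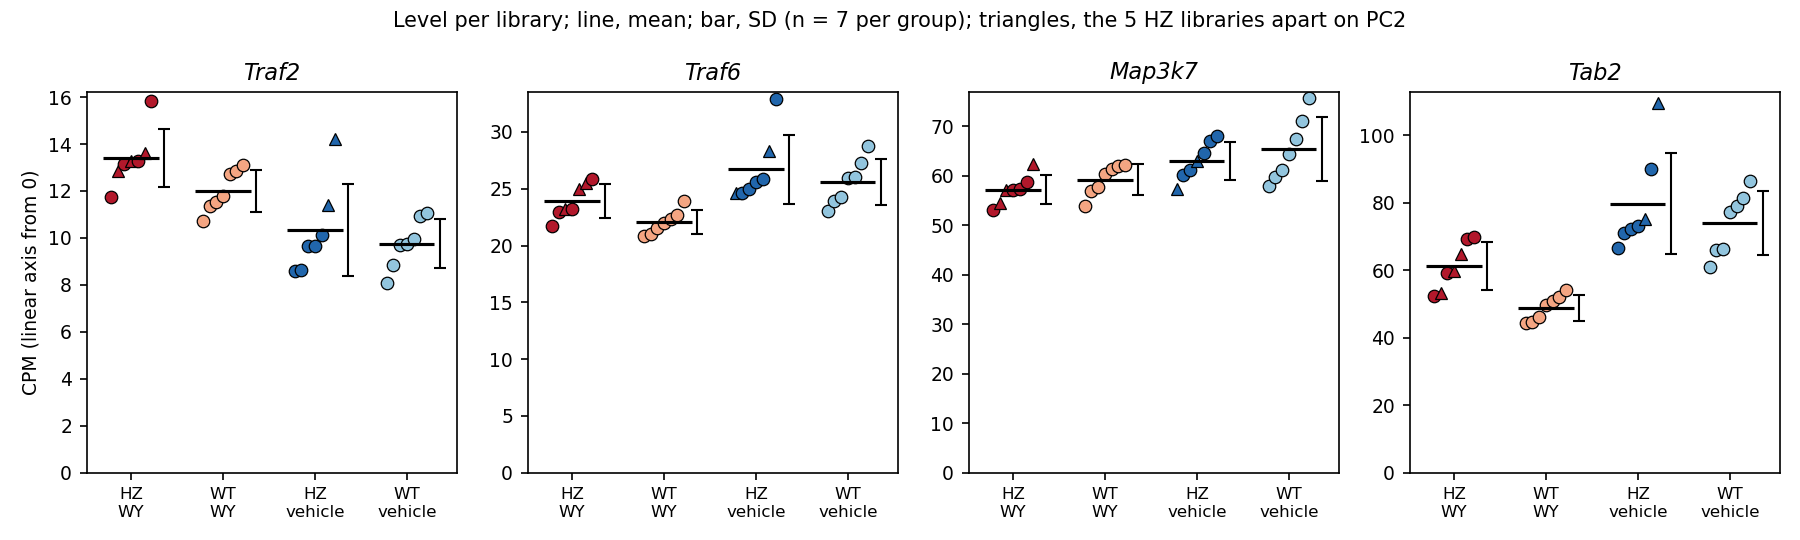
Level of Traf2, Traf6, Map3k7 and Tab2 in each library in CPM on linear axes from 0, drawn as for the 3 chosen genes (line, mean; bar, SD; n = 7 per group). Traf2 is higher in the WY groups than in the vehicle groups, and Tab2 is lowest in WT WY livers at 44.5 to 54.2 CPM.

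The comparison of WY with vehicle sets the levels of these genes under the PPARα agonist beside those under CMC alone. Traf2 was higher and Tab2, Traf6 and Map3k7 were lower under WY, averaged over both genotypes. So 4 of 4 genes tested passed, where 66.3% of all genes tested did. Treatment and the series of animal numbers cannot be told apart in these changes. Traf2 rose by 0.34 ± 0.066 on the log2 scale (edgeR adjusted p = 5.1e-05), with libraries of 11.8 to 15.8 CPM in HZ WY and 10.7 to 13.1 CPM in WT WY, against 8.59 to 14.2 CPM in HZ vehicle and 8.10 to 11.1 CPM in WT vehicle. Tab2 fell by 0.49 ± 0.068 (adjusted p = 2.9e-07), Traf6 by 0.19 ± 0.045 (adjusted p = 0.000529) and Map3k7 by 0.14 ± 0.039 (adjusted p = 0.00237). With a trend over transcript length removed, 3 of the 4 passed and Traf6 was at -0.083 ± 0.044 (adjusted p = 0.0988). With 66.3% of genes passing, a pass is close to what any expressed gene showed.

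Tab2 had the largest WY change of these 4 genes. In WT livers it was at 44.5, 49.8 and 54.2 CPM in the lowest, median and highest WY libraries, against 61.0, 77.3 and 86.6 CPM in vehicle libraries. The WT groups did not overlap, as for 12.1% of all genes tested in that direction and 15.7% in the other, and the change was -0.60 ± 0.096 (edgeR adjusted p = 6.5e-06). In HZ livers Tab2 was at 52.3, 59.9 and 69.9 CPM under WY against 66.6, 73.2 and 109.6 CPM under vehicle, with overlapping groups, where 9.89% of genes had every WY library lower and 12.6% every one higher, and it fell by 0.38 ± 0.096 (adjusted p = 0.00128). The difference between these changes, HZ minus WT, was 0.22 ± 0.14 and did not pass (adjusted p = 0.634).

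All 4 genes passed in each genotype as well, where 55.7% of the genes tested passed in HZ (29.3% higher under WY, 26.4% lower) and 54.1% in WT (27.4% higher, 26.7% lower). Traf2 rose by 0.37 ± 0.092 in HZ (edgeR adjusted p = 0.00111) and by 0.30 ± 0.094 in WT livers (adjusted p = 0.00793). Traf6 fell by 0.16 ± 0.063 in HZ (adjusted p = 0.0332) and by 0.22 ± 0.063 in WT livers (adjusted p = 0.00494), and Map3k7 by 0.14 ± 0.056 in HZ (adjusted p = 0.0331) and 0.14 ± 0.056 in WT livers (adjusted p = 0.0316). The calls of Traf6 and Map3k7 in HZ, and that of Map3k7 in WT, were near the threshold. In HZ, 2 of the 4 genes passed without HZ vehicle animal 34, without HZ WY animal 17, with no filter on low counts, or with the HZ libraries alone. In WT, the Map3k7 call was lost in 6 fits that left out 1 library (edgeR adjusted p from 0.0523 to 0.105). It was also lost in 2 of 8 other alternatives. With a trend over transcript length removed, 2 of the 4 passed in each genotype. The differences between the genotypes' changes were 0.07 for Traf2, 0.06 for Traf6 and 0.002 for Map3k7, with adjusted p of 0.884, 0.851 and 0.995. No gene of all those tested passed for this difference in edgeR, with 1182 at an unadjusted p below 0.05, and 3 passed in DESeq2 and 1 in limma voom.

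Tifa, Alpk1 and Irf5 were lower under WY in both genotypes, but these changes use the vehicle libraries by which the genes were chosen and are a description. Tifa changed by -1.30 ± 0.31 in HZ and -0.46 ± 0.34 in WT livers, Alpk1 by -0.93 ± 0.29 and -0.58 ± 0.32, and Irf5 by -0.72 ± 0.16 and -0.69 ± 0.17, HZ first. Alternatives that leave out more than 1 library or change the fit include the one without the 5 HZ libraries. Over these the HZ change ran from -1.38 to -0.64 for Tifa and from -0.95 to -0.56 for Alpk1. The WT change ran from -0.53 to -0.33 for Tifa and from -0.59 to -0.49 for Alpk1. For Tifa the difference, HZ minus WT, was -0.84 ± 0.46 and ran from -0.86 to -0.18. In WT livers the medians were 5.02 CPM under WY and 5.68 CPM under vehicle for Tifa, 2.77 and 4.63 CPM for Alpk1, and 5.42 and 8.11 CPM for Irf5. The levels of the 3 genes in HZ WY livers, 7.27 ± 1.31 CPM for Tifa, 5.43 ± 1.82 CPM for Alpk1 and 8.48 ± 1.56 CPM for Irf5, were within 1 SD of those in WT vehicle livers for Tifa (6.52 ± 2.16 CPM) and Irf5 (8.93 ± 2.43 CPM). Alpk1 averaged 4.39 ± 0.559 CPM in WT vehicle livers.

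**Figure D3:**
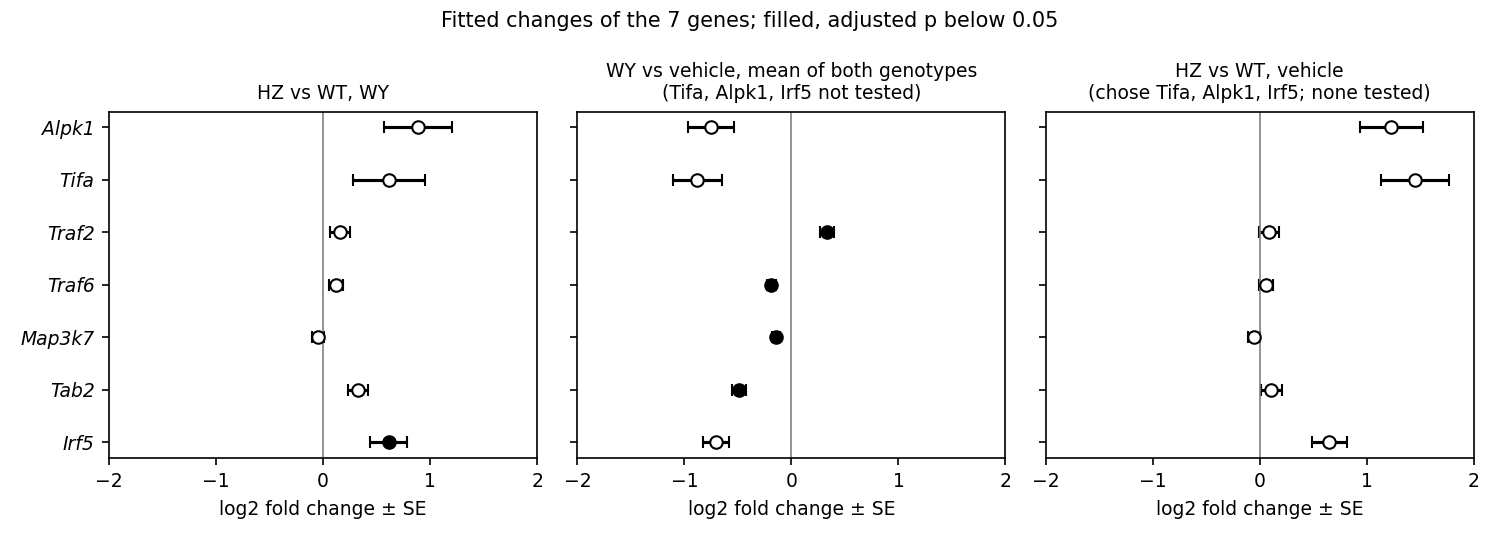
Log2 fold change ± SE of the 7 genes in 3 panels, which show the genotypes under WY (HZ over WT), WY over vehicle averaged across genotypes, and the genotypes under vehicle. Filled points passed at an adjusted p below 0.05 (edgeR), and Tifa, Alpk1 and Irf5 have no test in the second panel nor any gene in the third; Irf5 alone is filled in the first.

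The levels of Alpk1 and Tifa were set side by side across animals, each library's log2 CPM as a deviation from its group's mean. The genes were chosen with the HZ vehicle libraries, whose deviations stay in these values, so correlations over all 28 libraries are a description, and the test uses the 14 WY libraries. Over 28 libraries, Pearson's r of Alpk1 and Tifa was 0.81 and Spearman's rho 0.68. It was 0.65 without HZ vehicle animals 38 and 30, the pair farthest on Alpk1, and 0.55 over the 23 libraries without the 5 HZ libraries. Among the WY libraries r was 0.42 (permutation p = 0.192, adjusted over 6 relations 0.385) and rho 0.41 (permutation p = 0.186, adjusted 0.279), with 100000 permutations within groups, two-sided. The relation of the 2 genes thus did not pass in the libraries outside the choice, where r was 0.44 without HZ WY animals 21 and 15, the farthest on Alpk1.

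For Irf5, the values over 28 libraries were lower, with an r of 0.12 with Alpk1 (rho 0.02) and of 0.28 with Tifa (rho 0.25). Without the 2 libraries farthest on the x axis they were -0.01 and 0.51. In the WY libraries r was -0.0030 with Alpk1 (permutation p = 0.993, adjusted 0.999) and 0.00057 with Tifa (permutation p = 0.999, adjusted 0.999), with rho of -0.08 and -0.13 (permutation p = 0.791 and 0.663, both 0.791 adjusted). Without the 2 farthest WY libraries these r were -0.26 and -0.47. Some animals were high for all 3 genes, among them HZ vehicle animal 38 and WT vehicle animals 31 and 37, the 2 highest of their group for each gene, while HZ vehicle animal 30 was high for Tifa and Alpk1 and at 12.4 CPM of Irf5 below its group's median.

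The mean deviation of 14 markers of Kupffer cells and macrophages was compared in the same way. Over 28 libraries, as a description, its r was 0.68 with Alpk1 (rho 0.66), 0.61 with Tifa (rho 0.58) and 0.15 with Irf5 (rho 0.15). Without HZ WY animal 14 and HZ vehicle animal 30, the farthest on the marker mean, these r were 0.64, 0.51 and 0.24. Over the 23 libraries without the 5, r was 0.03 for Alpk1, 0.26 for Tifa and 0.0064 for Irf5, so the values for Alpk1 and Tifa rest on the 5 HZ libraries. The 5 hold the highest marker deviations, so leaving them out also narrows the range over which r is taken. None of the 3 relations passed in the WY libraries. There r was 0.50 for Alpk1 (rho 0.47, permutation p = 0.136 and 0.142), 0.61 for Tifa (rho 0.51, permutation p = 0.052 and 0.102) and 0.34 for Irf5 (rho 0.39, permutation p = 0.294 and 0.178). Their adjusted permutation p for r were 0.385, 0.312 and 0.441, and 0.279 for each rho. Without HZ WY animals 14 and 21, the farthest on the marker mean, r was 0.23 for Alpk1, 0.33 for Tifa and 0.49 for Irf5.

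The 14 markers summed to 441 to 1221 CPM in HZ WY against 378 to 591 CPM in WT WY livers, and to 513 to 1145 CPM in HZ vehicle against 528 to 701 CPM in WT vehicle livers. None was at 0 throughout a group. All 14 had a positive fitted change in HZ against WT under WY, with a median of 0.61 on the log2 scale, and under vehicle, with a median of 0.38. In edgeR 0 of 14 passed in either comparison, with 12 under WY and 3 under vehicle at an unadjusted p below 0.05, where 24.1% of all genes tested were so under WY and 17.9% under vehicle. DESeq2 called 5 under WY and 0 under vehicle, and limma voom 0 in both. Over all genes, DESeq2 called 1102 under WY and 500 under vehicle, and limma voom 934 and 701. Without the 5 HZ libraries the medians were 0.09 under WY and 0.04 under vehicle. The fitted changes of the 3 chosen genes were then 0.46 to 0.54 under WY, where none passed (edgeR adjusted p from 0.193 to 0.311). Under vehicle they were 0.49 to 0.66, a description of the values that chose these genes. The part of these cells in the levels of Alpk1, Tifa and Irf5 was not tested.

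Neutrophil and monocyte markers were scarce, with sums of 4.96 to 24.4 CPM over 6 genes in HZ WY against 3.86 to 5.81 CPM in WT WY livers, and of 4.82 to 20.5 CPM in HZ vehicle against 5.05 to 9.84 CPM in WT vehicle livers. Their highest values were in animals 21 and 38, both among the 5 HZ libraries. In edgeR 0 of 5 tested passed in either genotype comparison, where 3.16% of all genes tested passed under WY and 2.07% under vehicle. At an unadjusted p below 0.05 there were 4 under WY and 1 under vehicle, against 24.1% and 17.9% of all genes tested. DESeq2 called 4 under WY (1102 over all genes) and 0 under vehicle (500 over all genes). Limma voom called 0 in both (934 and 701 over all genes). Without the 5 HZ libraries 0 of 5 had an unadjusted p below 0.05 in edgeR, under WY or under vehicle. The median log2 fold change was then 0.33 under WY and 0.29 under vehicle, against 1.56 and 0.80 with all libraries.

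**Figure D4:**
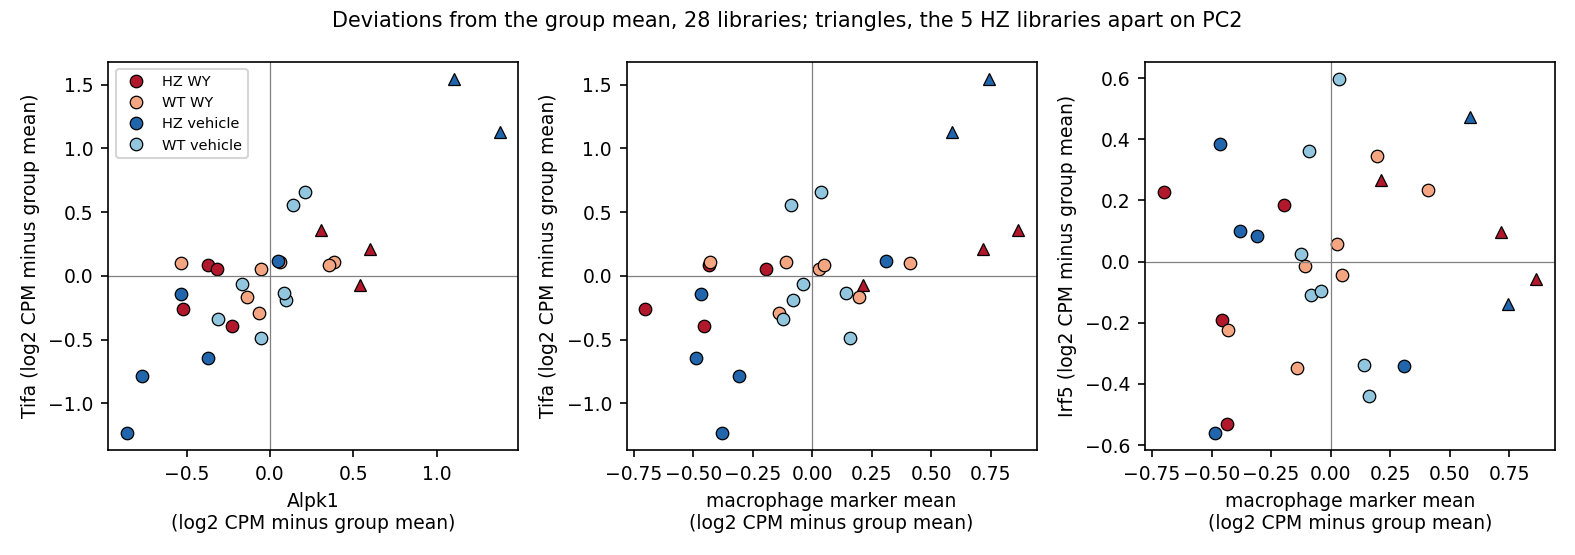
Deviation of each of 28 libraries from its group mean in log2 CPM, for Tifa against Alpk1 (left), Tifa against the mean of 14 macrophage markers (middle) and Irf5 against that mean (right), with triangles for the 5 HZ libraries that lie apart. Over all 28 libraries r is 0.81 for Alpk1 and Tifa, 0.61 for the markers and Tifa and 0.15 for the markers and Irf5, and the 2 HZ vehicle triangles stand highest in the left and middle panels.

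The genes most like each of the 3 in these deviations were found among 11115 genes with a mean of at least 1 CPM, as a description over 28 libraries that share their depth and their animals. For Tifa they were Il17ra (r = 0.86), a subunit of the interleukin 17 receptor, Slc37a1 (0.85), Btg2 (0.84), Fosl2 (0.81), an AP-1 subunit, and Mcl1 (0.81), an inhibitor of apoptosis, and Alpk1 ranked at 6. For Alpk1 they were Hpx (0.89), which encodes the plasma haem carrier hemopexin, Il1rn (0.87), the interleukin 1 receptor antagonist, Lcn2 (0.83), Csf3r (0.83) and H2-Q4 (0.83), with Tifa at rank 14. Without the 5 HZ libraries these values were 0.64 to 0.75 for the genes like Tifa and 0.30 to 0.57 for those like Alpk1. For Irf5 the most alike were Ldb1 (0.80), Ift74 (0.76), Aaas (0.76), Csnk2a2 (0.74) and Mapk8ip1 (0.72), at 0.71 to 0.86 without the 5, and Tifa ranked at 1408.

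The neighbourhood of Alpk1 and Tifa was compared between genotypes because the 2 genes lie side by side. Another 6 protein-coding genes start within 500 kb of either gene, and 4 of them had enough counts to be tested. In edgeR 0 of the 4 passed in either genotype comparison, with 0 under WY and 1 under vehicle at an unadjusted p below 0.05, and neither DESeq2 nor limma voom called any. Ap1ar, which overlaps Tifa on the other strand without shared exon bases, had a log2 fold change of 0.03 ± 0.054 under WY and 0.07 ± 0.054 under vehicle. Larp7, which encodes a protein of the 7SK ribonucleoprotein, had -0.11 ± 0.057 under WY and -0.14 ± 0.058 under vehicle. Neurog2 had no count in any library, and Ank2 had at most 7. Tifa shares 105 of its 3199 exon bases with a predicted gene on the other strand that has no row in the tables.

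**Figure D5:**
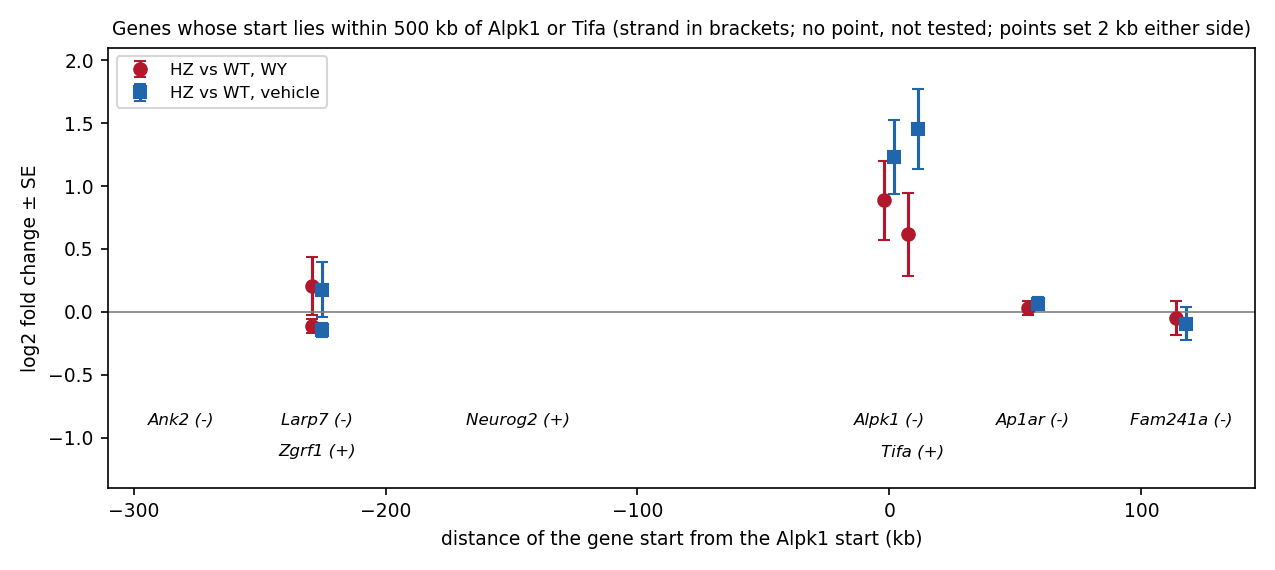
Log2 fold change ± SE of HZ against WT under WY and under vehicle for genes that start within 500 kb of Alpk1 or Tifa, placed by the distance of their start from the Alpk1 start in kb. Alpk1 and Tifa stand at 0.62 to 1.45, and the 4 other genes tested lie between -0.14 and 0.21.

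Genes of the surrounding pathways were counted in 7 lists, chosen with earlier results of these data known. In HZ against WT under WY, 1 of 87 list genes passed in edgeR (3.16% of all genes did), with 22 at an unadjusted p below 0.05, and DESeq2 called 5 (1102 over all genes) and limma voom 2 (934 over all genes). Of all genes tested, 24.1% had an unadjusted p below 0.05, a share close to that of the lists. This gene was Nod1, a cytosolic sensor of bacterial peptidoglycan, among 21 tested genes of the ubiquitin and kinase relay. It had 11.7, 12.3 and 15.8 CPM in the lowest, median and highest HZ WY libraries against 9.59, 9.92 and 11.1 CPM in WT WY libraries. Its groups did not overlap, as for 0.452% of all genes tested in that direction and 0.896% in the other. Its log2 fold change was 0.37 ± 0.080 (adjusted p = 0.0175). Without the 5 HZ libraries 0 of the 87 genes passed, with 15 at an unadjusted p below 0.05, against 48 and 1970 of all genes. Next in that list were Tifab, a relative of TIFA that in human and mouse blood cells restrains TRAF6, at 0.83 ± 0.24 (adjusted p = 0.0503), and Ube2n, the ubiquitin-conjugating enzyme used by TRAF6, at -0.20 ± 0.063 (adjusted p = 0.0687).

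In the other 6 lists no gene passed in edgeR under WY, and the values below are those with the smallest p, all with an adjusted p above 0.05. The medians of the lists, on the log2 scale, were 0.26 for 10 NF-kB subunits and inhibitors, 0.06 for 10 negative regulators, 0.18 for 19 genes of the Toll-like receptor route, 0.29 for 8 IRF genes, 0.06 for 13 genes of the JNK and p38 branch and 1.02 for 6 cytokines and adhesion genes, against 0.009 for all genes tested. Tnfaip3, which encodes the deubiquitinase A20, had a log2 fold change of 0.95 ± 0.40, Tlr3 of 0.44 ± 0.15 and Tlr2 of 1.02 ± 0.39. Irf1 had 0.45 ± 0.16 and Irf7, the IRF of the interferon response, 0.89 ± 0.44. The chemokine gene Ccl2 had 1.35 ± 0.44, the adhesion gene Icam1 0.87 ± 0.31 and Il1b 1.11 ± 0.41. First by p in their lists, Bcl3 of the NF-kB list had 0.43 ± 0.27 and Map2k7 of the JNK and p38 branch 0.12 ± 0.051. Of the genes so ranked in these lists, Irf3 at -0.09 ± 0.056 and Mapk12 at -0.15 ± 0.11 were lower in HZ. These 6 medians were smaller without the 5 HZ libraries, at 0.07 for the NF-kB subunits and inhibitors, 0.05 for the negative regulators, 0.07 for the Toll-like receptor route, 0.13 for the IRF genes, 0.03 for the JNK and p38 branch and 0.45 for the cytokines and adhesion genes. Over all 87 genes the median was 0.08 without them and 0.12 with them, and 58 had a positive fitted change without them and 67 with them.

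Under vehicle, 0 of the same 87 genes passed between HZ and WT in edgeR, where 2.07% of all genes tested did. At an unadjusted p below 0.05 there were 23, against 17.9% of all genes tested, and DESeq2 called 2 (500 over all genes) and limma voom 3 (701 over all genes). Of the 87, 56 had a positive fitted change with all libraries and 33 without the 5 HZ libraries, with medians of 0.07 and -0.02 on the log2 scale. Interleukin 12 subunit genes, which IRF5 is known to induce in macrophages, were too low to test, with Il12b at 0 in every WT library and Il12a at 0 in every HZ vehicle and WT WY library.

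In WY against vehicle, averaged over genotypes, many list genes differed, in both directions, against 33.6% of all genes tested rising and 32.7% falling. In the ubiquitin and kinase relay, 8 of 21 genes rose and 6 fell. Rbck1, the HOIL-1 subunit of the linear ubiquitin ligase, rose by 0.56 ± 0.041 (edgeR adjusted p = 1.5e-12), while Birc2, the ubiquitin ligase cIAP1, fell by 0.51 ± 0.051 (adjusted p = 6.2e-10) and Ikbkb, the IKKβ kinase, fell by 0.33 ± 0.041 (adjusted p = 2.9e-08). Of 10 NF-kB subunits and inhibitors, 2 rose and 2 fell, among them the inhibitor gene Nfkbib, up by 0.43 ± 0.074, and Rel, down by 0.55 ± 0.15. Of 10 negative regulators 2 rose and 3 fell, with the deubiquitinase gene Cyld down by 0.73 ± 0.058 and Sigirr up by 0.37 ± 0.053.

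On the Toll-like receptor route 3 of 19 genes rose and 7 fell under WY. The adaptor gene Myd88 rose by 0.77 ± 0.094 (edgeR adjusted p = 3.6e-08) and Irak2 by 0.67 ± 0.073, while Tirap, the bridging adaptor of MyD88, fell by 0.45 ± 0.057. Of 8 other IRF genes, Irf3 alone rose, by 0.55 ± 0.040 (adjusted p = 1.4e-12), and 5 fell, among them Irf2 by 1.08 ± 0.090 (adjusted p = 3.0e-11). Irf2 averaged 34.5 ± 2.63 CPM in HZ WY and 30.2 ± 3.68 CPM in WT WY livers, against 71.2 ± 16.2 CPM in HZ vehicle and 65.2 ± 13.7 CPM in WT vehicle livers. The change of Irf5 under WY, -0.72 in HZ and -0.69 in WT livers as a description, had the direction of most of its family.

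In the JNK and p38 branch 3 of 13 genes rose and 3 fell under WY. Map2k6, a kinase that activates p38, fell by 2.65 ± 0.23 (edgeR adjusted p = 1.2e-10), to 2.23 ± 0.565 CPM in HZ WY and 2.00 ± 0.564 CPM in WT WY livers, against 14.9 ± 4.41 CPM in HZ vehicle and 11.9 ± 8.31 CPM in WT vehicle livers. Jun rose by 0.96 ± 0.13 and Atf2 fell by 0.32 ± 0.040. Of 6 cytokine and adhesion genes tested, Il1b rose by 0.84 ± 0.30 (adjusted p = 0.0151), and Cxcl1 and Vcam1 fell, Vcam1 by 0.84 ± 0.17. Cxcl1, a neutrophil-attracting chemokine, had 0.5995, 2.05 and 5.44 CPM in the lowest, median and highest HZ WY libraries and 0.423, 1.27 and 1.81 CPM in WT WY, against 3.29, 7.42 and 100.4 CPM in HZ vehicle and 2.00, 4.93 and 42.7 CPM in WT vehicle livers. The 2 highest vehicle values were in HZ animal 30 and WT animal 37, and the change was -3.08 ± 0.60 (adjusted p = 6.9e-05).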

How the data were processed

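The authors deposited raw read counts, 1 row per gene symbol and not normalized, in a table of 14 vehicle libraries and a table of 14 WY libraries. Per the submitters' processing notes, STAR 2.5.0a, HTSeq 0.6.1p1, DESeq2 1.18.1 and mm10 were used. The sources used here state neither the annotation nor whether strand was used. Per the labels, RNA was taken from frozen liver with Trizol and libraries were made with NEBNext Ultra. Each library is 1 animal. Of all reads per library, 35.8 to 42.6% stood in the summary row of reads without a unique place and 6.35 to 9.08% in no gene, and the 5 HTSeq summary rows were left out of library sizes and tests. Rows whose symbols had become dates (25 and 27 per table) were left out.

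The 7 genes and all lists were chosen with earlier results of these data known. Counts of 12607 genes (filterByExpr) were fitted in R 4.3.3 with edgeR 4.0.16 (TMM, robust quasi-likelihood, 1 mean per group, 28 libraries, 24 residual degrees of freedom), and p was adjusted by Benjamini-Hochberg over all genes of a contrast, with a threshold of 0.05. Unless stated otherwise, an adjusted p is from this fit. SE was computed by dividing the size of the log2 fold change by the square root of F. The contrast of WY with vehicle averaged over genotypes had been planned as a test of all 7 genes. It is a description for Tifa, Alpk1 and Irf5, because their HZ vehicle libraries, which chose them, also varied more in CPM than the other groups. For Irf5 the spread relative to the mean was alike in both vehicle groups, at 14.0 ± 3.55 CPM in HZ and 8.93 ± 2.43 CPM in WT. Because the HZ vehicle libraries took part in the choice, the planned correlation test over all libraries is replaced by that over the WY libraries. Named list genes are the up to 3 with the smallest p in HZ against WT under WY and in the WY average, of which some are not reported here. Log2 CPM used a prior count of 2. The calls and the correlation test were tried on simulated data of 28 libraries in 4 groups, with the same dispersion or spread in every group. These simulations cover neither the wider spread of Tifa and Alpk1 in the HZ vehicle libraries nor a correlation test of the 14 WY libraries alone. Alternatives were DESeq2 1.42.0, DESeq2 size factors, limma 3.58.1 with voom quality weights, no filter, a filter at a mean of 5 CPM, a fit of only the groups compared, removal of a transcript length trend, animal number series, and leaving out libraries.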

Additional observations from a re-analysis of the deposited data

How the results depend on the processing

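No paired analysis was possible because no animal number occurs in more than 1 group. Leaving out 1 library at a time gave 74 to 977 genes called for HZ against WT under WY (398 with all), 43 to 650 under vehicle (261 with all) and 0 to 1 for the genotype by WY interaction, and 0 to 3 of the 7 genes under WY. In these fits 2 to 4 of Traf2, Traf6, Map3k7 and Tab2 were called for WY in HZ. The change in HZ against WT under WY ran from 0.56 to 0.69 for Irf5 and from 0.77 to 0.97 for Alpk1. For HZ against WT under vehicle, 0 genes were called without the 5 HZ libraries, with only the groups compared, or with animals 29 to 39 only, 146 with no filter, 69 with a term for animals 71 to 78, 500 by DESeq2 and 701 by limma voom. Under WY the counts were 683 with DESeq2 size factors (203 higher and 480 lower, against 179 and 219), 153 with no filter (83 and 70), 48 without the 5 HZ libraries, 1102 by DESeq2 (400 and 702) and 934 by limma voom (377 and 557), and with the length trend removed 93 were higher and 230 lower. For the interaction they were 3 by DESeq2 and 1 by limma voom.

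Of the 7 genes under WY, 0 were called with no filter or without the 5 HZ libraries, 2 with a filter at a mean of 5 CPM and by limma voom, 3 by DESeq2 and 4 with only the WY groups. Irf5 was at 0.61 with no filter and 0.54 without the 5 HZ libraries, both not called. Alpk1 was called at 0.89 with only the WY groups and 0.87 by DESeq2, and Tifa at 0.62 with only the WY groups. For WY against vehicle, 2 of 4 relay genes were called with the length trend removed in WT and in HZ, and 2 in HZ with no filter or only the HZ groups. The Map3k7 interaction of 0.002 turned to -0.021 with DESeq2 size factors, -0.0014 with a filter at a mean of 5 CPM, -0.040 without the 5 HZ libraries, -0.038 with the length trend removed, -0.021 by DESeq2 and -0.0076 by limma voom, and ran from -0.036 to 0.029 without 1 library. Within groups, r without the 5 HZ libraries was 0.55 for Alpk1 and Tifa, -0.27 for Alpk1 and Irf5, and 0.26 and 0.033 for the macrophage marker mean with Tifa and Alpk1. In the vehicle libraries it was -0.013 for the marker mean and Irf5. In the WY libraries it was 0.42 for Alpk1 and Tifa, -0.0030 for Alpk1 and Irf5, and 0.61 and 0.50 for the marker mean with Tifa and Alpk1. The causes of these changes were not tested.

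Alpk1, Tifa and Irf5 had 37 to 817 counts per library, which limits the precision of each value, and Sirt6 had 15 to 79.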
